A study of Mus musculus with 17 samples.

Results

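Binding sites of 4 transcription factors, IRF1, JUNB, CEBPB and MYC, were compared with each other within untreated mouse macrophages. The members were all peaks of the 4 untreated ChIP-seq lists on chromosomes 1 to 19, X and Y that overlapped no peak of the input list. They numbered 15508 of the 144384 peaks in the 16 ChIP lists of the series, from 4 of its 17 libraries. The cells were primary macrophages grown for 7 days from bone marrow of C57BL/6 mice in medium with L929-conditioned supernatant, and no cytokine was added to the 4 libraries compared here. The titles of the 4 libraries mark the cells as wild type (wt). Elsewhere in the series the same kind of cells received IFNg (100 ng/ml), IL4 (10 ng/ml) or both for 2 or 4 h, and those lists serve below only as a further readout of the untreated sites. Each combination of factor and treatment was 1 library, so no test between factors was possible, every comparison describes these libraries, and the exact Clopper-Pearson 95% intervals in parentheses cover counting error only.

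The 4 factors belong to different families. JUNB is a subunit of AP-1, a dimer of leucine zipper proteins of the JUN and FOS families that reads TGANTCA and acts largely at enhancers. CEBPB is a leucine zipper protein of the C/EBP family, which together with the factor PU.1 shapes the enhancers of myeloid cells. It binds sites of the type TTNNGNAA. IRF1 is an interferon-induced factor that reads repeats of GAAA in the promoters of interferon response genes. MYC binds the E-box CACGTG as a dimer with MAX and is known for the promoters of genes of ribosome production and growth.

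The lists differed widely in length. After filtering, IRF1 had 244 peaks, MYC had 495, CEBPB had 5540 and JUNB had 9229, and the input filter removed 7 MYC peaks and none of the other lists. Library depth relative to the input library, recovered from the steps of the peak values, was 1.54 for IRF1, 1.55 for JUNB, 1.45 for CEBPB and 0.555 for MYC, where the share of values on such steps was 0.741 for MYC and 1 for the others. The MYC list thus came from a library with less than the depth of the others, and its length cannot be set against theirs. The authors' threshold differed as well. IRF1, CEBPB and MYC peaks all had a −log10 q of at least 2, where q is the p-value adjusted by the peak caller. In the JUNB list 5355 peaks met that value and 3874 did not. The median −log10 p of a list, the authors' value for each peak, was 33.8 for IRF1, 20.4 for CEBPB, 12.1 for MYC and 6.28 for JUNB. The median fold enrichment over the control was 12.3, 8.01, 7.29 and 4.09 in that order. These values rank peaks within a list and are not compared between lists.

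Promoters under the peaks of each list show the DNA words that go with it. The sequences below were read from RefSeq promoters of build GRCm38.p6, with 250 bases before to 50 bases after a listed start. They are the strand of the gene, 5′ to 3′, from promoters whose window held a peak summit, chosen as the strongest peaks with a match that could be shown upstream of the start. Capitals mark the searched word. Near Dhrs9, a retinol dehydrogenase gene, the JUNB summit lay 16 bp upstream of the start (fold 12.5), and near Mctp1, a gene of a membrane calcium sensor, 26 bp upstream (fold 13.7). The CEBPB examples are Dclre1c, a DNA repair nuclease, with a summit 240 bp upstream (fold 32.1), and Clec12a, a myeloid lectin receptor, with a summit 135 bp upstream (fold 18.6). For MYC they are Psme3, a proteasome activator gene (48 bp upstream, fold 13.3), and Cdk7, a kinase of transcription initiation (72 bp upstream, fold 11.4).
Dhrs9, JUNB, chr2:69380407-69380461, + strand: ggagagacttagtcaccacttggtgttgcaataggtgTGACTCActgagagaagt
Mctp1, JUNB, chr13:76579494-76579574, + strand: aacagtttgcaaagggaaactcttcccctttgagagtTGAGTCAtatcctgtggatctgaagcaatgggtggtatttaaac
Dclre1c, CEBPB, chr2:3423881-3423939, + strand: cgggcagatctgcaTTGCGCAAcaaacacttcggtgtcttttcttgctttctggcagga
Clec12a, CEBPB, chr6:129350120-129350201, + strand: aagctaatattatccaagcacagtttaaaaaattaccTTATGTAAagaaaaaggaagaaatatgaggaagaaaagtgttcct
Psme3, MYC, chr11:101316132-101316211, + strand: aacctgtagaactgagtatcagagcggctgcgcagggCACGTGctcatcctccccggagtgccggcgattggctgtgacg
Cdk7, MYC, chr13:100731000-100731079, - strand: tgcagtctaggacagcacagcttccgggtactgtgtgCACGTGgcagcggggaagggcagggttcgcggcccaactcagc

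Over all promoters with a summit of the list, JUNB promoters held TGANTCA on either strand in 84 of 288 (29.2%, 24.0 to 34.8%), against 6.99% of all 21263 promoters. CEBPB promoters held TTNNGNAA in 192 of 263 (73.0%, 67.2 to 78.3%), against 37.3% of all, and MYC promoters held CACGTG in 81 of 199 (40.7%, 33.8 to 47.9%), against 7.84%. Each of these 3 words was more frequent under its own factor than under the other factors. TTNNGNAA was also frequent in JUNB promoters (47.9%, 42.0 to 53.9%), and of 42 promoters with summits of both JUNB and CEBPB 37 held it and 11 held TGANTCA. The AP-1 word TGANTCA was found in 7.22% of CEBPB, 4.03% of IRF1 and 1.01% of MYC promoters. CACGTG was found in 13.7% of CEBPB and 6.94% of JUNB promoters and in 14 of 149 IRF1 promoters. In the stronger part of the JUNB promoters, split at the median peak, TGANTCA was in 39.6% (31.5 to 48.1%), and in the weaker part in 18.8% (12.7 to 26.1%). For CEBPB and TTNNGNAA it was 84.1% and 61.8%. For MYC and CACGTG the shares were 43.0% and 38.4%, whose intervals overlap. The words can overlap in a sequence, and a match is only a match of letters.

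The untreated IRF1 promoters did not show this pattern. The word of interferon-type elements searched was a pair of GAAA separated by any 2 bases. It was in 8 of 149 promoters with an untreated IRF1 summit (5.37%, 2.35 to 10.3%), and in 3.35% of all promoters, a value inside that interval. In the stronger part, split at the median peak, it was in 2 of 75 (2.67%, 0.325 to 9.30%). In the weaker part it was in 6 of 74 (8.11%, 3.03 to 16.8%), and these 2 intervals overlap. In the list from cells treated with IFNg for 4 h, 155 further promoters had an IRF1 summit and no untreated one, and 76 of them held the word (49.0%, 40.9 to 57.2%). After IFNg with IL4 it was 100 of 445 such promoters (22.5%, 18.7 to 26.6%). The examples are the strongest untreated IRF1 peaks with a match that could be shown upstream of the start, and they ranked 107 and 194 of 244. They were at Gpatch2, a gene of a G-patch domain protein (fold 17.1), and Gm12250, a gene of the interferon-inducible GTPase region on chromosome 11 (fold 9.92). Both are shown with the word, on the reverse strand, in capitals.
Gpatch2, IRF1, chr1:187215305-187215388, + strand: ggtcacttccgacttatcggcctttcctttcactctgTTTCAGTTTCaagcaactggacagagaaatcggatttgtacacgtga
Gm12250, IRF1, chr11:58183760-58183842, + strand: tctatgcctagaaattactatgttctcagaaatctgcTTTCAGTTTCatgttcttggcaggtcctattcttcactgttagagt

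Most sites carried a single factor. Peaks that overlapped by at least 1 bp were merged across the 4 lists into 13443 sites, of which 11407 (84.9%) held 1 factor, 2018 held 2, 17 held 3 and 1 held all 4. Sites with 2 or more factors made up 15.1% (14.5 to 15.8%), and 1948 of those 2036 sites held JUNB and CEBPB and no other factor. JUNB alone accounted for 7210 sites, CEBPB alone for 3552, MYC alone for 429 and IRF1 alone for 216. The other pairs were few: 33 sites of JUNB with MYC, 17 of IRF1 with JUNB, 15 of CEBPB with MYC, 3 of IRF1 with CEBPB and 2 of IRF1 with MYC.

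**Figure D1:**
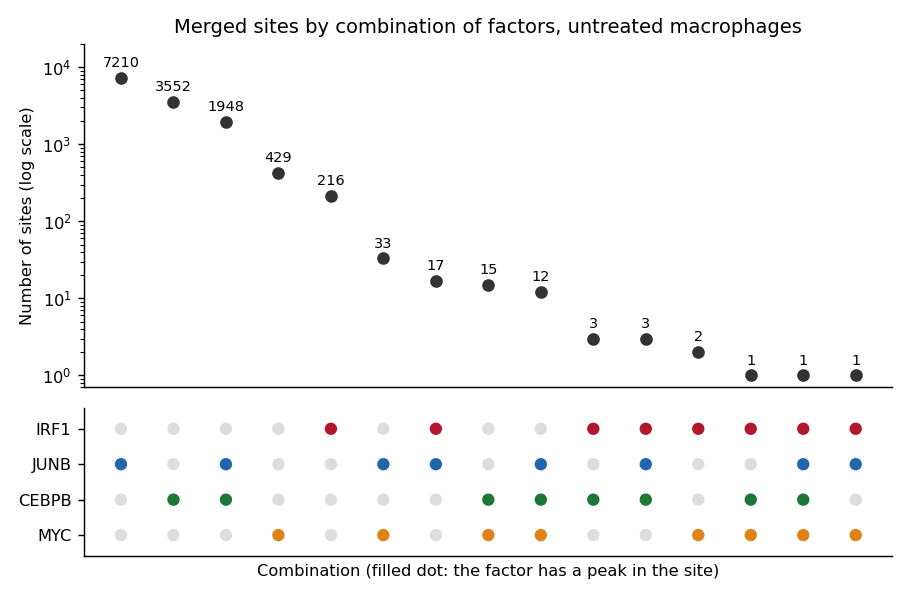
Number of merged sites (vertical axis, log scale) for each combination of factors, with the factors of a combination marked by filled dots below. The single-factor classes of JUNB (7210) and CEBPB (3552) and their shared class (1948) stand well above all other classes, and no other shared class exceeds 33 sites.

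JUNB and CEBPB shared sites more often than any other pair as a share of either list. A JUNB peak overlapped 1968 of 5540 CEBPB peaks (35.5%, 34.3 to 36.8%), and a CEBPB peak overlapped 1967 of 9229 JUNB peaks (21.3%, 20.5 to 22.2%). The same JUNB list overlapped 48 of 495 MYC peaks (9.70%, 7.24 to 12.7%) and 22 of 244 IRF1 peaks (9.02%, 5.74 to 13.3%). CEBPB peaks overlapped 29 MYC peaks (5.86%, 3.96 to 8.31%) and 7 IRF1 peaks (2.87%, 1.16 to 5.82%). IRF1 and MYC shared 4 peaks, 1.64% of the IRF1 list and 0.808% of the MYC list. With JUNB peaks limited to a −log10 q of at least 2, the shares with a JUNB peak were 24.7% for CEBPB, 4.51% for IRF1 and 4.24% for MYC, so each share was lower and CEBPB was still above the others. With all lists at a −log10 q of at least 5 they were 16.3%, 1.72% and 1.93%, and 901 sites held 2 or more factors. Among the 244 strongest peaks of each list, 14 CEBPB peaks (5.74%) and no IRF1 or MYC peak overlapped a JUNB peak. In that setting 2 MYC peaks overlapped a CEBPB peak and 2 IRF1 peaks a MYC peak (0.820% each). The full lists covered 2643 kb for JUNB, 1496 kb for CEBPB, 93.8 kb for MYC and 82.3 kb for IRF1. The part of this length in the shares was not tested.

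The shares of peaks with a JUNB peak were also counted by position, and the CEBPB share was the highest in both classes. The part of position in the gap between CEBPB and the other lists was not tested. Away from gene starts and ends, 37.4% (36.0 to 38.8%) of 4951 CEBPB peaks overlapped a JUNB peak. There 30 of 107 MYC peaks (28.0%, 19.8 to 37.5%) and 7 of 37 IRF1 peaks (18.9%, 7.96 to 35.2%) did so as well. Near a start, or near an end of a gene without a listed start, the shares were 19.9% (16.7 to 23.3%) for CEBPB, 7.25% (4.11 to 11.7%) for IRF1 and 4.64% (2.77 to 7.23%) for MYC. Away from starts the intervals of CEBPB and MYC thus overlapped, and near starts they did not.

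At JUNB and CEBPB peaks that overlapped, the summits lay close together. The median distance was 37 bp over 1967 peaks, the middle part of the distances ran from 17 to 71 bp, and 1208 (61.4%, 59.2 to 63.6%) were within 50 bp. For JUNB and MYC the median was 64 bp over 47 peaks and for CEBPB and MYC 61 bp over 29. IRF1 summits lay farther from those of its partners, with medians of 142 bp to JUNB (22 peaks), 124 bp to CEBPB (7 peaks) and 146 bp to MYC (4 peaks), in a list whose peaks were also the widest (median 345 bp, against 253 for JUNB, 255 for CEBPB and 160 for MYC). Few overlaps of JUNB and CEBPB were marginal: 9 were of 20 bp or less, and 31 further pairs missed each other by at most 100 bp.

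Sharing rose with peak strength in both lists. Each list was cut by −log10 p into 10 classes of about equal size. Of the strongest class of CEBPB peaks, 319 of 554 overlapped a JUNB peak (57.6%, 53.3 to 61.7%), and of the weakest 157 of 574 (27.4%, 23.7 to 31.2%). From class 6 on, the CEBPB share stayed between 26.6 and 28.3%. The JUNB share with a CEBPB peak fell from 34.1% (31.1 to 37.3%) in the strongest class to 12.6% (10.5 to 14.9%) in the weakest. CEBPB peaks with JUNB had a median −log10 p of 25.7 and those without 18.3. For JUNB with and without CEBPB the medians were 7.74 and 5.95. Among JUNB peaks that met a −log10 q of 2, 25.5% (24.3 to 26.7%) overlapped a CEBPB peak, and among those below it 15.5% (14.4 to 16.7%). The shared peaks were also wider, with a median of 286 bp against 240 for CEBPB and 298 against 244 for JUNB, and the part of width in the count of overlaps was not tested.

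**Figure D2:**
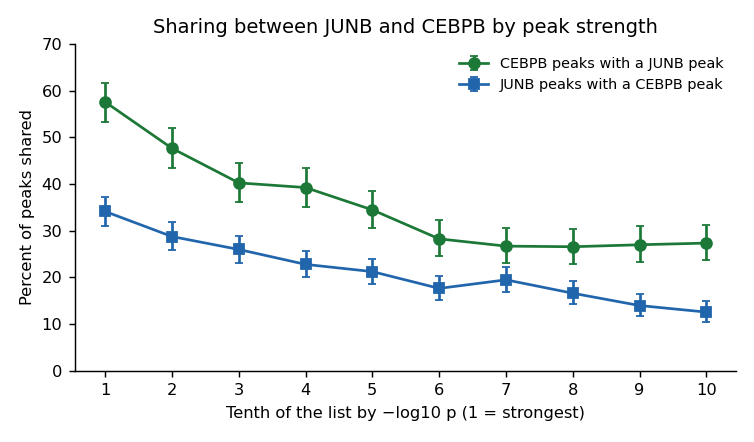
Percent of CEBPB peaks with a JUNB peak (circles) and of JUNB peaks with a CEBPB peak (squares) in 10 classes of the list, from the strongest (1) to the weakest (10) by −log10 p, with 95% Clopper-Pearson intervals. Both fall from class 1 (57.6 and 34.1%) to class 10 (27.4 and 12.6%), and the CEBPB curve is flat from class 6 on.

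The lists fell into a promoter type and a distal type. The summit lay within 1 kb of a listed transcription start for 176 of 244 IRF1 peaks (72.1%, 66.1 to 77.7%) and 330 of 495 MYC peaks (66.7%, 62.3 to 70.8%). It did so for 554 of 9229 JUNB peaks (6.00%, 5.53 to 6.51%) and 467 of 5540 CEBPB peaks (8.43%, 7.71 to 9.19%), and the share over all sites was 10.3%. Within 2.5 kb it was 9.74% for JUNB and 13.1% for CEBPB, and within 1 kb it was 3.75% for JUNB once the −log10 q had to reach 5. The reference gave starts for 17492 of 21887 protein-coding genes. A further 31 IRF1, 58 MYC, 134 JUNB and 122 CEBPB summits lay within 1 kb of an end of a gene without a listed start. JUNB summits were inside genes in 47.0% and between genes in 45.6%, and CEBPB summits in 46.9% and 42.5%. More than 50 kb from any gene lay 15.6% of JUNB and 13.3% of CEBPB peaks, against 2 IRF1 peaks (0.820%) and 5 MYC peaks (1.01%).

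**Figure D3:**
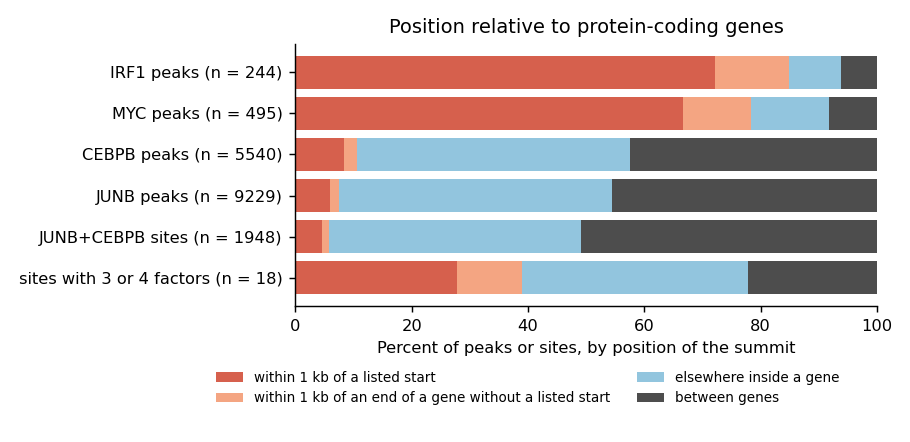
Percent of peaks of each list, of the sites with JUNB and CEBPB only, and of the 18 sites with 3 or 4 factors, by the position of the summit. IRF1 and MYC bars are mostly near a start, whereas JUNB and CEBPB bars lie inside genes or between them, and the JUNB+CEBPB sites have the lowest share near a listed start (4.52%).

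Sites with both JUNB and CEBPB were more distal than either factor alone. Of the 1948 sites with these 2 factors only, 88 were near a listed start (4.52%, 3.64 to 5.54%) and 50.9% (48.6 to 53.1%) were between genes. For sites of JUNB alone the shares were 6.12% and 44.4%, and for sites of CEBPB alone 10.1% and 38.1%. The JUNB share near a start depended on the threshold. Over all JUNB peaks, shared or not, it was 4.84% at a −log10 q of at least 2 and 3.75% at 5 or more. The part of threshold and peak strength in the difference from JUNB alone was not tested. The 18 sites with 3 or 4 factors were mixed, with 5 near a listed start, 2 near an end of a gene without one, 7 inside genes and 4 between genes.

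Within 1 kb of a start the factors also differed in where the summit fell. IRF1 summits had a median position 74 bp upstream, and 72.7% (65.5 to 79.2%) were upstream of the start. JUNB and CEBPB medians were 64 and 73 bp upstream, with 65.0% and 69.2% upstream. MYC summits were centred on the start, at a median of 14.5 bp downstream, and 46.4% (40.9 to 51.9%) were upstream. IRF1 summits were also the most concentrated, with 82.4% of those within 1 kb lying within 250 bp, against 71.5% for MYC, 57.2% for JUNB and 55.7% for CEBPB.

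**Figure D4:**
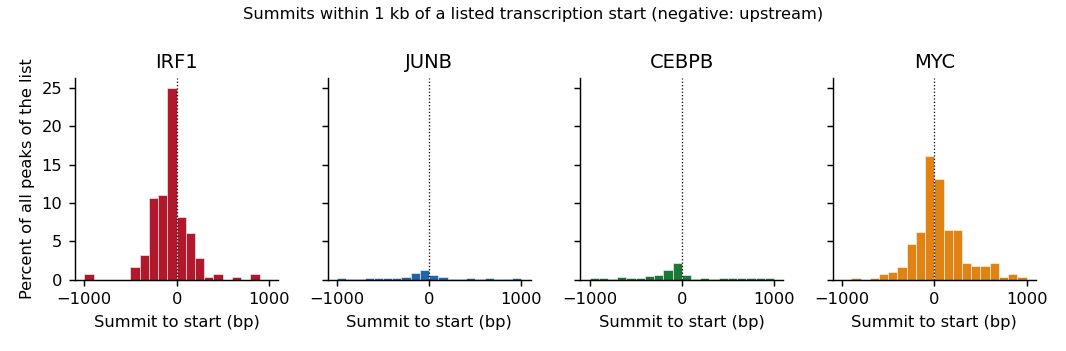
Distance from summit to the nearest listed transcription start for the 4 lists, in bins of 100 bp from 1 kb upstream (negative) to 1 kb downstream, as percent of all peaks of the list. The IRF1 panel peaks just upstream of the start, the MYC panel spreads over both sides (median 14.5 bp downstream), and the JUNB and CEBPB panels hold few peaks at any distance.

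The strongest peaks of each list followed the same division only in part. The top MYC peak lay between genes and the IRF1 peak in Mical3 inside a gene. The MYC peaks at Rpl32 and Ppp1r15b were at ends of genes without a listed start. The top IRF1 peak was at the start of Rnf44, a ubiquitin ligase gene (chr13:54693737-54694557, fold 43.3, summit 100 bp upstream). The next were at Mia2 (fold 32.1), a gene of vesicle export from the endoplasmic reticulum, Taf15 (30.6), an RNA-binding protein gene, inside Mical3 (36.4), a gene of an enzyme that oxidises actin, and at Flcn (23.2), which encodes folliculin of the lysosomal nutrient pathway. None of these 5 sites held another factor. The strongest MYC peak was 7790 bp from Myo1g, a myosin of blood cells (fold 25.7), followed by Ncl, the nucleolar protein nucleolin (18.5), the ribosomal protein gene Rpl32 (17.9), Ppp1r15b, a regulator of the translation factor eIF2 (18.8), and the ribosomal protein gene Rpl12 (16.6).

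The strongest JUNB and CEBPB peaks were mostly away from listed starts. For JUNB they were inside Nudt13, a Nudix hydrolase gene (fold 30.4, shared with a CEBPB peak of fold 19.6), 106 kb from Fmo9 (36.3), 233 kb from Zpld1 (37.3), in Npas4, a gene of an activity-dependent transcription factor (34.2), and in Ank1, the ankyrin of red cells (32.1). For CEBPB the top peak was at an end of Cotl1, an actin-binding protein gene without a listed start (fold 41.9), with no other factor. The next 4 all overlapped JUNB peaks. They were inside Htra1, a secreted protease gene (CEBPB fold 37.3, JUNB fold 7.96), in H2aj, a histone H2A gene (44.2 and 12.3), between Pfpl and Mpeg1, genes of perforin-like proteins (36.0 and 6.07), and inside Eea1, an endosome tether gene (39.6 and 22.1). Further CEBPB sites without another factor were inside Emilin2 (33.1), an extracellular matrix gene, and Rarg (32.5), a retinoic acid receptor gene. Of the sites with JUNB and CEBPB only, the highest combined ranks were at Eea1, beside Psen2, a presenilin gene (CEBPB fold 28.5, JUNB fold 22.9), and at the start of Mideas, which encodes a subunit of a histone deacetylase complex (28.6 and 14.3).

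A single site held all 4 factors. It covered 410 bp inside Eif4a1, the gene of the RNA helicase of translation initiation, 930 bp downstream of its start (chr11:69671247-69671656 in the authors' build, mm10/GRCm38). There CEBPB had a fold of 16.8, MYC 13.3, IRF1 6.23 and JUNB 2.67. The CEBPB and MYC peaks ranked 293 and 14 in their lists, whereas the IRF1 peak ranked 231 of 244 and the JUNB peak 8562 of 9229. The JUNB peak had a −log10 q of 0, so at the threshold of the other lists the site held 3 factors. Cd68, a lysosomal membrane protein used as a macrophage marker, is the neighbouring gene and lies within 20 kb of the same site.

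Of the 17 sites with 3 factors, 12 held JUNB, CEBPB and MYC. The strongest by combined rank was inside Mvb12b, a gene of endosomal sorting (CEBPB fold 14.4, MYC 10.4, JUNB 5.06). At Ppp1r15b MYC had a fold of 18.8, CEBPB 13.2 and JUNB 3.49. Others lay in Hnrnpu, an RNA-binding protein gene, near an end of Arsg, a lysosomal sulfatase gene, at the start of Tgif1, a homeobox repressor gene, and in Sh3bp5, Tmem189 and Nisch. Slc3a2, the heavy chain of an amino acid transporter, had such a site 801 bp downstream of its start (MYC 7.58, CEBPB 7.66, JUNB 3.63), and Atp23 had a site 3736 bp away. A further site of this class was 8210 bp upstream of Nr1d1, a name added with its values known.

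The other 3-factor combinations involved IRF1. Sites with IRF1, JUNB and CEBPB lay 1285 bp upstream of Junb itself (IRF1 fold 20.7, CEBPB 7.10, JUNB 3.87), inside Peli2, a ubiquitin ligase gene of Toll-like receptor signalling (5.76, 7.62 and 6.88), and at the start of Selenop, which encodes the plasma selenium carrier (9.51, 10.8 and 3.72). A site with IRF1, CEBPB and MYC was 2079 bp from Lrrc75a (IRF1 23.0, CEBPB 5.42, MYC 5.25). One with IRF1, JUNB and MYC was 207 bp upstream of Atf7, a gene of an AP-1-related leucine zipper factor (IRF1 9.21, MYC 8.51, JUNB 2.67). The number of sites with 3 or more factors depended on the rule, being 10 rather than 18 with JUNB peaks at a −log10 q of at least 2, 4 when an overlap of 50% of both peaks was required, and 1 with all lists at a −log10 q of at least 5.

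The rare pairs held few sites, and the intervals of their shares near a listed start overlapped. Near a listed start lay 10.3% of all sites. For single factors it was 72.7% of IRF1-only, 70.6% of MYC-only, 10.1% of CEBPB-only and 6.12% of JUNB-only sites. All 3 sites of IRF1 with CEBPB were within 1 kb of a start, at Bcl6, a transcriptional repressor (IRF1 fold 20.5, CEBPB 8.16), Hexim1, an inhibitor of transcription elongation (11.8 and 4.06), and Meis1, a homeobox factor (5.14 and 3.87). Both sites of IRF1 with MYC were at starts too, at Eif3b, a subunit of a translation initiation factor (IRF1 12.3, MYC 10.9), and Nop56, a nucleolar protein of ribosomal RNA modification (23.1 and 6.16). Of 15 sites of CEBPB with MYC, 11 were near a listed start. The highest ranks were at Rpl10a, a ribosomal protein gene (CEBPB 17.2, MYC 11.9), inside Wdr48 (20.4 and 10.4) and at an end of Ndrg1 (28.5 and 8.68). Of 17 sites of IRF1 with JUNB, 11 were near a listed start. They were led by Fam53c, Srxn1, which encodes the antioxidant enzyme sulfiredoxin (IRF1 19.7, JUNB 6.23), and Myl12a, a myosin light chain (10.8 and 5.37). Sites of JUNB with MYC had the lowest share near a listed start, 9 of 33 (27.3%, 13.3 to 45.5%). The strongest were at Mfsd12 (MYC 10.2, JUNB 7.04), in Adam17, the protease that sheds TNF (11.4 and 5.07), and 23.6 kb from Txlnb (7.17 and 11.1).

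Genes of macrophage function were often near JUNB and CEBPB peaks. A gene was counted as near a peak when a summit lay within 20 kb of its span, which held for 25.2% of all 21887 protein-coding genes with JUNB, 20.7% with CEBPB, 4.72% with MYC and 2.47% with IRF1. Of 26 macrophage identity genes, 24 were near a JUNB peak and 21 near a CEBPB peak, and 21 were near both, against 12.3% of all genes. The same 21 were those near 2 or more of the 4 factors, against 14.7% of all genes. The median number of peaks per gene in that list was 2.5 for JUNB and 2 for CEBPB, and 0 for both over all genes. The genes of the list spanned a median of 19.3 kb, close to the 17.2 kb of all genes. IRF1 and MYC were each near 1 of the 26, in both cases Cd68. The IRF1 peak and 1 of its 3 MYC peaks belonged to the site in Eif4a1. That gene was the member near 3 or more factors (1.19% of all genes) and near all 4 (0.0685%). Csf2ra and Marco, named after their values were seen, had no JUNB or CEBPB peak in the window.

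Many of these genes had sites that carried both factors. Of the 26 macrophage identity genes, 15 had a site of JUNB and CEBPB within 20 kb, against 7.16% of all genes. Cd36, a scavenger receptor for oxidised lipid, had 5 JUNB and 5 CEBPB peaks, which formed 5 shared sites inside the gene. Its best CEBPB fold was 15.5 and its best JUNB fold 7.99. Trem2, a lipid-sensing receptor, had 4 JUNB peaks (best fold 27.2) and 1 CEBPB peak (21.2) with 1 shared site. Lyz2, the lysozyme of macrophages, had 2 shared sites (CEBPB 23.7, JUNB 7.25), and its neighbour Lyz1 counts the same peaks. Spi1, which encodes PU.1, had 3 JUNB peaks and 2 CEBPB peaks (best fold 26.5) with 1 shared site. Tlr4, the receptor for bacterial lipopolysaccharide, had 5 and 2 peaks with 2 shared sites. Runx1, a blood cell transcription factor, had 7 JUNB and 4 CEBPB peaks and Apoe, the lipid carrier, 1 and 2, with no shared site at either gene.

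Of 30 AP-1 and inflammatory genes, 24 were near a JUNB peak, 21 near a CEBPB peak and 18 near both. The shares of all genes were 25.2%, 20.7% and 12.3%. With all lists at a −log10 q of at least 5, 12 of the 30 were near JUNB, against 10.4% of all genes. Atf3, a stress-induced leucine zipper factor, had 3 peaks of each and 3 shared sites (CEBPB fold 17.8, JUNB fold 5.42). Ccl3, a chemokine gene, had 4 JUNB and 3 CEBPB peaks with 3 shared sites, and Ccl2, another, 4 and 2 with 2 shared. Dusp1, a phosphatase of MAP kinases, had its best JUNB fold at 16.3, and Zfp36, which destabilises inflammatory mRNA, its best CEBPB fold at 15.4 and JUNB fold at 11.5. Tnfaip3, an inhibitor of NF-kB, had 3 JUNB peaks and 1 CEBPB peak with 1 shared site. Fos and Fosl2, partners of JUNB in AP-1, were each near IRF1, JUNB and CEBPB peaks. Of 25 C/EBP and myeloid genes, 15 were near JUNB and 12 near CEBPB, against 25.2% and 20.7% of all genes. None was near IRF1 or MYC, against 2.47% and 4.72% of all genes, and 9 were near no peak of the 4 lists. The leading genes were Il6ra (JUNB 25.2, CEBPB 17.5), a receptor for interleukin 6, Lyz1, Trib1 (12.9 and 21.9), which controls C/EBP protein turnover, Clec4e, Cd14 (5.79 and 10.5), Fpr2, Ddit3 and Lpl.

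**Figure D5:**
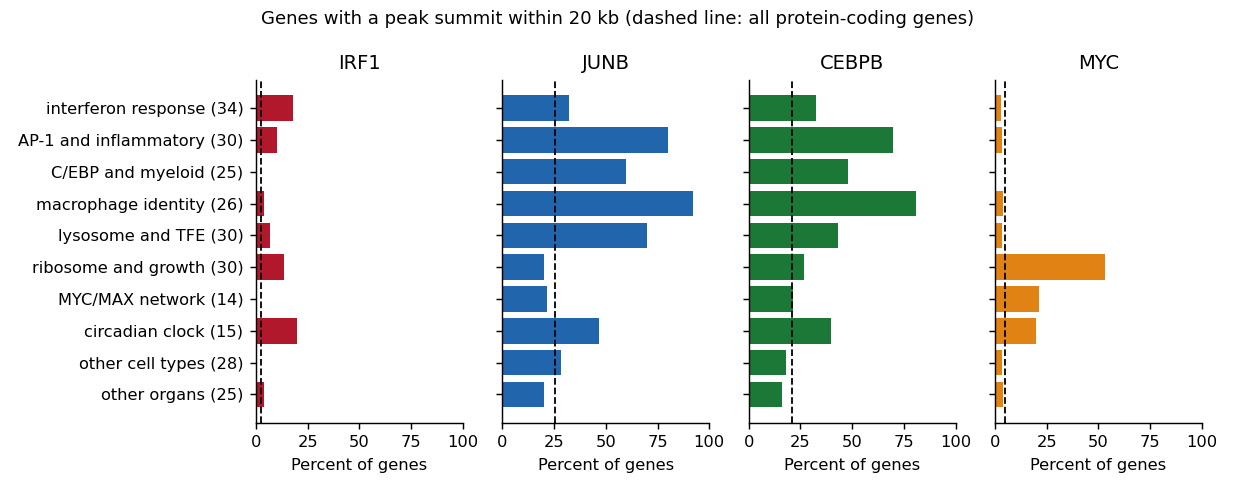
Percent of the genes of 10 lists (number of genes in brackets) with a peak summit of each factor within 20 kb of the gene, as bars from 0, and the percent of all protein-coding genes as a dashed line. JUNB and CEBPB bars are longest for macrophage identity and for AP-1 and inflammatory genes, the MYC bar for ribosome and growth genes (16 of 30), and lists of other cell types and organs lie near the line.

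Lysosome genes and their regulators were near JUNB peaks in 21 of 30 cases and near CEBPB in 13. The shares of all genes were 25.2% and 20.7%. Mitf and Tfeb, transcription factors that control lysosome genes, had 7 and 4 JUNB peaks, 3 CEBPB peaks each, and 3 and 2 shared sites. Tfe3, the third of that family, was near IRF1, JUNB and CEBPB peaks without a shared site. Ctsd and Ctsb, genes of lysosomal proteases, had best CEBPB folds of 18.1 and 14.8, Uvrag, an autophagy gene, 25.6, and Gpnmb, a lysosomal glycoprotein gene, 14.0.

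The lists chosen as comparisons stayed nearer to the share of all genes. Of 28 markers of other cell types, 8 were near a JUNB peak, 5 near CEBPB, 1 near MYC and none near IRF1, and of 25 genes of other organs 5, 4, 1 and 1. The shares of all genes were 25.2%, 20.7%, 4.72% and 2.47% in that order. Some single markers did have strong peaks: Flt3, a receptor of progenitors and dendritic cells, had 3 JUNB and 2 CEBPB peaks (best fold 25.4) with 2 shared sites, and Ms4a1, which encodes CD20 of B cells, had 6 JUNB peaks and a CEBPB peak of fold 23.7. A peak near a gene is no measure of its expression, and several lists hold neighbouring genes that count the same peak.

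Ribosome and growth genes were near MYC. Of 30 genes, 16 were near a MYC peak, through 22 peaks, against 6 near JUNB, 8 near CEBPB and 4 near IRF1. Over all genes, 4.72% were near MYC, 25.2% near JUNB, 20.7% near CEBPB and 2.47% near IRF1. The strongest MYC peaks of the list were near Ncl (fold 18.5), Eif4a1 (13.3) and Ddx21, a nucleolar helicase gene (13.9). Rrp12, a ribosome export gene, and Nop56 had weaker MYC peaks (6.92 and 6.16) and IRF1 peaks of fold 19.8 and 23.1. Ccnd2 and Cdk4, which drive entry into the cell cycle, and Polr1a, the large subunit of RNA polymerase I, were near peaks of other factors but not of MYC. In the MYC/MAX network itself 3 of 14 genes were near a MYC peak: Mnt (6.55), a repressor that pairs with MAX, Mlxip (7.07) and Max (5.21). Mxi1 was near JUNB and CEBPB only. Clock genes, many of which carry E-boxes, were near MYC in 3 of 15 cases, among them Nr1d1 and Dbp, near IRF1 in 3, JUNB in 7 and CEBPB in 6. Per1 and the cryptochrome genes Cry1 and Cry2 were near CEBPB with best folds of 13.2, 14.1 and 14.8, Nr1d2 and Tef were near JUNB, and Bhlhe41 was near IRF1, JUNB and CEBPB.

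Interferon response genes were near IRF1 in 6 of 34 cases in untreated cells, against 2.47% of all genes, but through only 3 peaks. The genes, named after their values were seen, were Tap1, Tap2, Psmb8 and Psmb9, neighbours that serve antigen processing, Igtp, an interferon-inducible GTPase, and Socs1, an inhibitor of cytokine signalling. Within 5 kb it was 3 of 34, against 1.54% of all genes. The same list had 11 genes near JUNB and 11 near CEBPB (32.4% each), against 25.2% and 20.7% of all genes. Among them were Cxcl10 (JUNB fold 12.9, CEBPB 11.9), Gbp3 (9.53 and 17.9), Gbp2, Gbp5 and Nos2, each with 1 shared site. Irf8, a myeloid factor, was near JUNB alone (7.81). Cxcl9, a chemokine gene beside Cxcl10, was near CEBPB (14.0) and the only gene of the list near MYC (7.52).

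The genes of the 4 factors were themselves unevenly covered. Junb was near 2 IRF1, 3 JUNB and 2 CEBPB peaks, some of which formed 2 shared sites. Myc was near 1 JUNB peak (fold 15.3) and 1 CEBPB peak (12.5), which did not overlap, and near no MYC peak. Irf1 was near a single weak JUNB peak (3.01), and Cebpb was near no peak of the 4 lists. The genes with the most sites of JUNB and CEBPB only within 20 kb of their span, picked here after their values were seen, were Lpp with 6, and Fndc3b, Irf2, Trps1, Auh and Cd36 with 5 each. For Auh and Cd36 these were all of the sites of any class in that window. Sites of any class numbered 17 for Lpp, 13 for Fndc3b, 12 for Irf2 and 11 for Trps1. The part of gene length in these counts was not tested.

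The classes also differed in readouts that were not used to define them. A STAT6 peak after 2 h of IL4 overlapped 50.5% of all untreated sites. The share was 70.8% at sites of JUNB and CEBPB, 54.9% at sites of JUNB alone and 32.0% at sites of CEBPB alone, with 38.0% for IRF1 alone and 36.6% for MYC alone. STAT6 is the factor activated by the IL4 receptor, and its lists come from treated cells only. After IL4 with IFNg, when 44.5% of all sites overlapped a STAT6 peak, the order was the same, with 62.9% for JUNB and CEBPB, 49.8% for JUNB alone and 25.5% for CEBPB alone. When CEBPB peaks were cut into 5 classes by −log10 p, the share after IL4 was higher with JUNB than without in each class. The part of peak width, position and strength within a class was not tested. In the strongest class of CEBPB peaks 76.8% of those with JUNB and 49.3% of those without overlapped a STAT6 peak, and in the weakest 68.2% and 24.8%. Among JUNB peaks the shares with and without CEBPB were 79.5% and 71.1% in the strongest class and 65.7% and 44.8% in the weakest.

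Untreated CEBPB sites were listed again after 4 h of IFNg in nearly every case, with 99.9% of peaks with JUNB and 99.8% of those without, in a list of 21499 peaks that covered 63.5% of all untreated sites. In the shorter list from IFNg with IL4 (6278 peaks, 36.6% of all sites), 88.0% of CEBPB peaks with JUNB and 69.8% of those without were listed. In the strongest of the 5 classes these shares were 99.7% and 99.4%, and in the weakest 66.6% and 41.2%. The IFNg list of CEBPB also covered 40.8% of the sites that held JUNB alone in untreated cells. Lists of different depth are set side by side here, and the part of depth in these shares was not tested.

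For JUNB the shares with and without CEBPB were compared in the same way. After IFNg (33.9% of all sites listed), 59.6% of JUNB peaks with CEBPB and 43.5% of those without were listed, and the share was higher with CEBPB in each class by strength, from 91.0% and 87.8% in the strongest to 22.9% and 16.7% in the weakest. After IFNg with IL4 (26.9% of all sites listed), the shares were 43.3% and 36.8% over all peaks. Within the 5 classes they were 81.1% and 82.6%, 43.9% and 49.7%, 27.5% and 28.3%, 15.8% and 20.9%, and 13.1% and 12.6%. In 4 of 5 the share with CEBPB was the lower value, but the intervals overlapped in all 5.

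Sites that held IRF1 alone or MYC alone were also mostly listed again for their factor, as CEBPB-only sites were after IFNg (99.8%). After IFNg, IRF1 was listed at 96.3% of the sites that held IRF1 alone, against 4.82% of all sites, and after IFNg with IL4 at 100%, against 10.7% of all. These IRF1 lists held 4189 and 8226 peaks, against 244 in untreated cells. MYC was listed at 100% of the sites that held MYC alone after both 2 h and 4 h of IL4, against 21.5% and 16% of all sites. With IFNg and IL4 together the MYC-only sites were listed in 96.7% after 2 h, against 6.57% of all sites, and in 95.3% after 4 h, against 7.48%. The list after 2 h of IL4, of 13211 peaks, also overlapped 53.7% of the IRF1-only sites and 12.7% of the CEBPB-only sites.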

How the data were processed

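Peak lists of 4 untreated libraries, 12 treated libraries and an input library were used, 1 library per group, so nothing was pooled. The submitters' processing notes name Bowtie2 (2.2.6), MACS2 (2.1.0.20150731) and the build mm10/GRCm38, with settings not given in the sources used here. Among the deposited values, fold enrichment is a ratio of signal to control at the summit, while −log10 p and −log10 q are per-peak values of the authors' peak caller. The deposited score is 10 times the −log10 q, or for untreated JUNB 10 times the −log10 p. The deposited summit offset in bp gave the summit positions.

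Peaks on chromosomes 1 to 19, X and Y without overlap with an input peak (128 used) were kept. Sites are peaks joined by an overlap of 1 bp across the 4 lists. Depth relative to the input was read from the steps of fold and −log10 p, with up to 2000 peaks of −log10 p at most 80 and a tolerance of 0.05. Read counts were not used. Positions and promoter sequences came from RefSeq tables of GRCm38.p6. Starts were listed for 17492 of 21887 protein-coding genes, and none on chromosome 18. The merging was tested on simulated peaks. Python 3.11.15, numpy 2.4.6, pandas 2.3.3, scipy 1.17.1 and matplotlib 3.10.9 were used.

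The naming rule took the nearest genes of the 5 strongest peaks per factor, the 3 strongest sites per combination by mean rank, the 15 strongest sites with 3 or more factors, the genes of the factors, and up to 8 members per gene list. Some genes that the rule names are not reported here. The members, lists and rules were chosen with earlier results of these data known. Alternatives covered the overlap rule, thresholds, list length, input filter and windows.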

Additional observations from a re-analysis of the deposited data

How the results depend on the processing

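No paired analysis was possible because each group is 1 library and no result comes from a test. Of 114 values recomputed under other settings  63 stayed within limits and 51 did not, the cause not being tested. The limits were the 95% interval of the first value for a share, 1.5 times for a count or a difference of medians, and 25% for a median distance. No genome sequence was used, so the motif search in windows around summits was not run. With an overlap of 50% of both peaks, 4 sites had 3 or more factors, CEBPB shared 28.0% with JUNB and JUNB 16.8% with CEBPB. MYC then shared 3.64% with JUNB and 2.42% with CEBPB, and IRF1 3.28% with JUNB, 0% with CEBPB and 0.410% with MYC. The CEBPB peaks listed after IFNg were then 82.5% with and 76.6% without JUNB, and the JUNB peaks 52.5% with and 36.2% without CEBPB. With summits within 100 bp, 11 sites had 3 or more factors, and the shares were 30.5% (CEBPB with JUNB), 18.3% (JUNB with CEBPB), 7.07% (MYC with JUNB), 2.87% (IRF1 with JUNB) and 0% (IRF1 with MYC).

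With JUNB at a −log10 q of at least 2, 10 sites had 3 or more factors, and the shares were 24.7% (CEBPB with JUNB), 25.5% (JUNB with CEBPB), 4.24% (MYC with JUNB) and 4.51% (IRF1 with JUNB). JUNB was then near a start in 4.84%, TGANTCA was in 40.3% of its promoters, and after IFNg 71.4% of its peaks with and 60.9% without CEBPB were listed. With all lists at a −log10 q of at least 5, 901 sites had 2 or more factors, 865 of them JUNB and CEBPB only, and 1 site had 3. The shares were 16.3% (CEBPB with JUNB), 28.2% (JUNB with CEBPB), 1.93% (MYC with JUNB) and 1.72% (IRF1 with JUNB), JUNB was near a start in 3.75%, and 12 AP-1 and inflammatory genes were near JUNB, against 10.4% of all genes. With the 244 strongest peaks of each list, 18 sites had 2 or more factors and 0 had 3, 14 were JUNB and CEBPB, and the shares were 5.74% for both of these, 0% for MYC with JUNB, 0.820% for MYC with CEBPB, and 0% for IRF1 with JUNB and with CEBPB. Within 500 bp of a start lay 4.36% of JUNB, 5.97% of CEBPB and 59.8% of MYC summits, and within 2.5 kb 9.74% of JUNB and 13.1% of CEBPB summits. Within 5 kb, 3 interferon genes were near IRF1. Keeping peaks over input peaks moved none of its 10 results.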

Other observations

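Words of 8 bases were counted in the promoters under the summits of each list after the searched words had been read, and the words given here were picked for their values. In promoters with an untreated IRF1 summit the most overrepresented words contained CGTACCA. It was in 22 of 149 such promoters (14.8%, 9.49 to 21.5%), of 21 genes, against 0.522% of all promoters, in 1 of the 155 promoters with an IRF1 summit after IFNg and none untreated, and in 10 of 445 (2.25%, 1.08 to 4.09%) after IFNg with IL4. The word was in 2 of 288 JUNB, 0 of 263 CEBPB and 2 of 199 MYC promoters. Taf15, Oga, which encodes an enzyme that removes sugar from proteins, and Ndst2, a heparan sulfate enzyme gene, are examples, with the word on the reverse strand in capitals and IRF1 folds of 30.6, 31.4 and 17.4. Positions are in GRCm38.p6.
Taf15, IRF1, chr11:83472915-83472995, + strand: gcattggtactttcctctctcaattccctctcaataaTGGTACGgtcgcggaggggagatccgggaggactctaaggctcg
Oga, IRF1, chr19:45783653-45783733, - strand: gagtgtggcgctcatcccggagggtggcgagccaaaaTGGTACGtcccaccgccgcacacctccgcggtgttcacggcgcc
Ndst2, IRF1, chr14:20734597-20734677, - strand: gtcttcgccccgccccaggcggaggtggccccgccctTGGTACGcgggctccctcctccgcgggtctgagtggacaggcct

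In CEBPB promoters TGACGCAA, which joins the start of an AP-1 or CRE word to the end of a C/EBP word, was in 38 of 263 (14.4%, 10.4 to 19.3%), against 0.644% of all promoters and 3 of 288 JUNB promoters. It was in 2 of the 42 promoters with summits of both CEBPB and JUNB. Fgd3, a gene of a regulator of the GTPase Cdc42 (CEBPB fold 16.4), and Knl1, a kinetochore gene (17.2), are examples.
Fgd3, CEBPB, chr13:49309271-49309352, - strand: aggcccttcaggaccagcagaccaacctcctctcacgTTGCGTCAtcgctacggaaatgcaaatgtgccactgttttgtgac
Knl1, CEBPB, chr2:119046869-119046927, + strand: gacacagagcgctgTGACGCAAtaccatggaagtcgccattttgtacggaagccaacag

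Cytosolic ribosomal protein genes, a group also picked after their values were seen, were near a MYC peak in 48 of 77 cases (62.3%), against 4.72% of all genes. They were near IRF1 in 3 (3.90%), JUNB in 20 (26.0%) and CEBPB in 14 (18.2%). The shares of all genes were 2.47%, 25.2% and 20.7%, so JUNB and CEBPB were close to them.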
